A study of Mus musculus with 12 samples.

Results

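Cholesterol and fatty acid synthesis genes were followed in mouse embryonic fibroblasts, the connective tissue cells grown from embryos, after an siRNA against IMP2. The set consisted of 29 named genes among the 48709 rows of the series table, and each of the 29 names was found once. They were sorted by role into 7 genes of the mevalonate arm, 11 of the squalene and sterol arm, 5 regulators of the SREBP system, 2 of sterol transport and 4 of fatty acid synthesis. The cells came from wild type C57BL/6 embryos of day 12.5 to 13.5. By the sample labels every group was given an siRNA, and the labels do not give its uptake per cell. The authors' deposited comparisons name the control Mock, where the labels name it siControl. The 4 groups were siControl (control siRNA, unstimulated), siControl_IL17 (control siRNA, then 200 ng/mL interleukin-17 for 8 hours), siIMP2 (siRNA against IMP2, unstimulated) and siIMP2_IL17 (siRNA against IMP2, then the same cytokine dose and time). The medium was changed and IL-17 was added 24 hours after transfection. Each group held 3 libraries, and the labels did not say whether these came from separate cultures or embryos, so p-values measure only how these libraries vary, and that variation may be technical. Library titles began with NA for replicates 1 and 2 of each group and with RB160 for replicate 3, and this title set was a term in the fit.

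Cells make cholesterol from acetyl-CoA. The mevalonate arm builds isoprenoid units and joins them to farnesyl pyrophosphate, and the squalene and sterol arm turns that into squalene, lanosterol and cholesterol. When membranes of the endoplasmic reticulum run low in cholesterol, Scap carries the SREBP transcription factors to the Golgi for cleavage, and the cleaved factors switch on most genes of both arms and of fatty acid synthesis. Insig1 and Insig2 hold the Scap complex back when sterols are plentiful. IMP2 is encoded by Igf2bp2 and binds mRNAs, including those that carry N6-methyladenosine.

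The libraries held 33841054 to 44433699 reads in exons, of which the members took 0.207% to 0.293%. CPM below means counts scaled by library size and TMM factors. The target Igf2bp2 was at 149 ± 17.1 CPM (SD, n = 3) with the control siRNA and at 21.9 ± 3.01 CPM with the IMP2 siRNA in unstimulated cells, and its log2 change over both stimuli was -2.74 ± 0.10 (edgeR adjusted p = 2.4e-09). Of 14 fibroblast markers none was at 0 in every library, and their summed level, carried by Col1a1, Col1a2 and Vim, was 16529 to 24090 CPM. With siIMP2, averaged over both stimuli, 8 of the 13 fibroblast markers tested fell and 1 rose, with a median log2 change of -0.48: Dcn, Lum and Pdgfra were at -2.74, -2.59 and -2.27, and Col1a1 at 0.32. Across libraries Lum lay at 0 to 7.0 CPM, Dcn at 0.56 to 60.1 CPM and Pdgfra at 3.10 to 141 CPM. Between the title sets 9 of the 13 were higher in RB160 and 2 lower, from -4.50 to 3.94 (log2), where 69.5% of all genes were called. Of 3 epithelial markers tested 2 rose, the keratins Krt8 and Krt18 by 2.17 and 1.11, and Cdh1 fell by 1.20, at a summed level of 0.73 to 3.45 CPM. The 11 adipocyte markers, with Adipoq and Lep at 0 in all libraries, summed to 4.76 to 5.27 CPM with siControl and 2.64 to 4.33 CPM with siIMP2 in the NA set, and to 26.1 to 40.4 CPM and 10.5 to 17.8 CPM in the RB160 set. The macrophage markers summed to 13.3 to 16.0 CPM with siControl and 8.57 to 9.69 CPM with siIMP2 in the NA set, and to 8.97 to 13.5 CPM and 10.4 to 12.2 CPM in the RB160 set. Mostly Cd14 and Cd68 carried this sum, at 4.14 to 10.7 CPM and 2.52 to 4.54 CPM. Adgre1 was at 0 in all libraries, and Ptprc was at 0.087 CPM at most. The part of these markers in the results below was not tested. In bulk RNA, fewer cells of a type and less RNA per cell cannot be told apart. On the scale of deposited TPM (a transcript abundance corrected for length), the median of 11885 genes above 1 CPM was 0.34 higher (log2) in the RB160 than in the NA libraries, a shift that the TMM factors removed. For siIMP2 over siControl the median was -0.070 on TPM, -0.086 on CPM without TMM factors and -0.00098 with them. The siIMP2 changes below are thus relative to the TMM centre.

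Levels per length spanned a wide range, from Scd2 at a mean of 298 TPM over the 12 libraries to Tm7sf2 at 2.34 TPM. Scd2, which desaturates stearoyl-CoA, stood at 252 ± 39.6 TPM (SD, n = 8) in the NA libraries and 391 ± 78.6 TPM (SD, n = 4) in the RB160 libraries. It supplied 19.2% to 30.5% of all member CPM. Acly, which makes cytosolic acetyl-CoA from citrate, followed at 137 TPM. Next came Srebf2, the gene of the SREBP that drives sterol synthesis, at 85.7 TPM, and Fdps, farnesyl pyrophosphate synthase, at 84.5 TPM. That order did not hold in the RB160 libraries, where Hmgcs1 had a mean of 91.7 ± 16.9 TPM (SD, n = 4), Fdps 80.4 ± 5.23 TPM and Srebf2 80.0 ± 8.86 TPM, and their libraries overlapped. Cyp51, Sc5d, Hmgcs1 and Fasn had mean levels of 72.1, 71.8, 71.4 and 71.3 TPM, and their libraries overlapped. The lowest members after Tm7sf2 were the cholesterol exporter Abca1 at 3.85 TPM, the last-step reductase Dhcr7 at 5.01 TPM and lanosterol synthase Lss at 6.29 TPM.

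**Figure D1:**
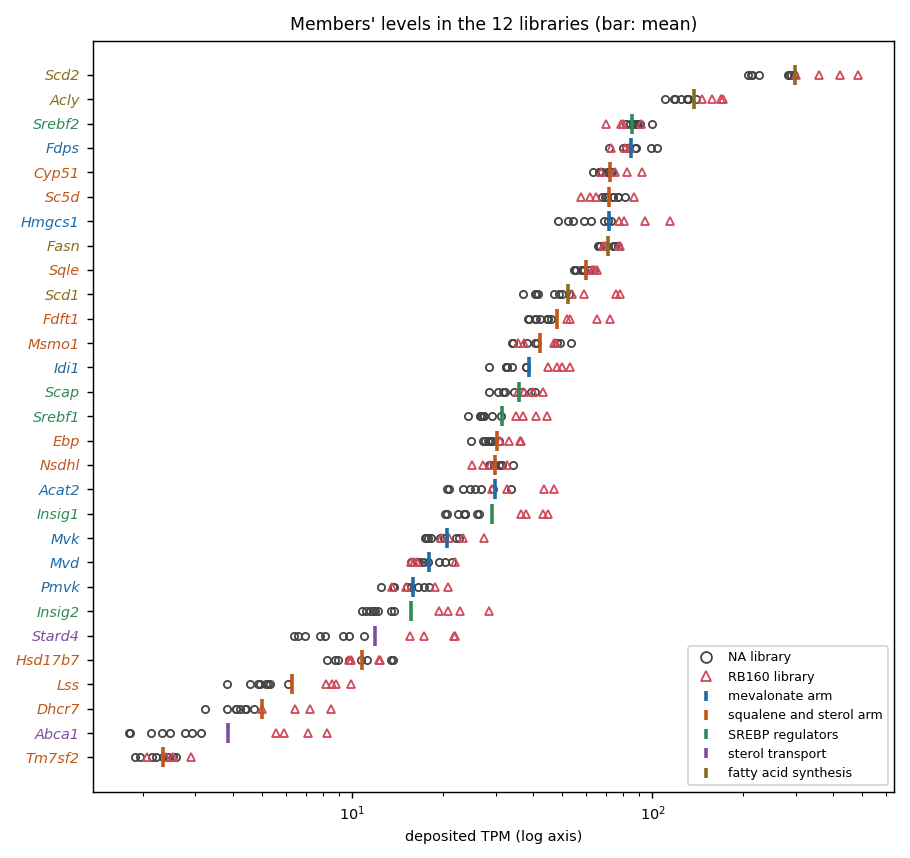
Deposited TPM on a log axis for each member, ordered by mean level. Circles are the 8 NA libraries, triangles the 4 RB160 libraries, and the coloured bar is the mean of all 12. Scd2 lies highest at 298 TPM and Tm7sf2 lowest at 2.34 TPM. All RB160 libraries lie above all NA libraries for Abca1 and Stard4, and also for further members such as Insig1, Insig2 and Lss. On this scale the median gene was 0.34 higher (log2) in RB160, and the share of all genes so separated was not computed.

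The siRNA against IMP2 moved the members in both directions. Averaged over both stimuli, 4 of the 29 rose and 8 fell at an adjusted p under 0.05 in edgeR's quasi-likelihood test, in a comparison that called 49.5% of all 13702 genes tested. The share called among the members was near this background. All 29 passed the filter on low counts. Their median log2 change was 0.0038, against -0.0022 over all genes tested. The 4 that rose were Msmo1, Hsd17b7, Fdps and Fasn, and the 8 that fell were Acat2, Hmgcs1, Pmvk, Scap, Stard4, Abca1, Scd1 and Scd2. No change reached 2-fold: the widest was that of Hsd17b7, a 1.39-fold increase. When the title set was left out of the fit, 4 of the 12 calls remained, those of Hsd17b7, Msmo1, Hmgcs1 and Scd1, and the directions of all 12 were kept.

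**Figure D2:**
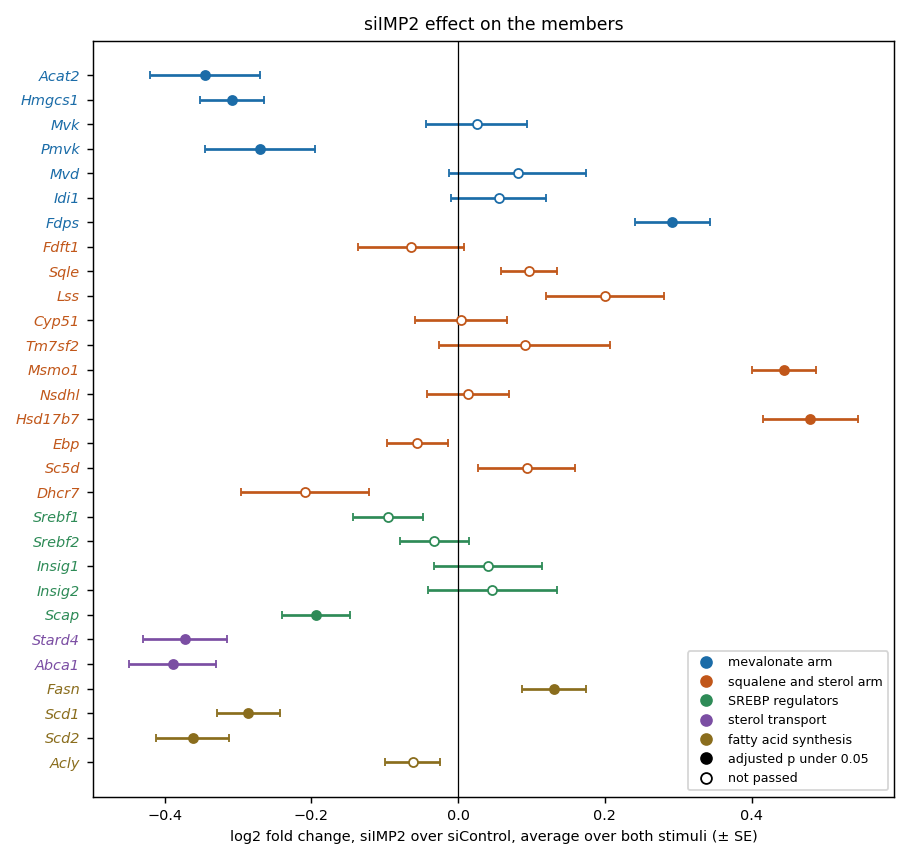
Log2 fold change of siIMP2 over siControl, averaged over both stimuli, for the 29 members in order of role, with the standard error of the fit. Filled points passed an adjusted p of 0.05. The 4 filled points right of 0 are Fdps, Msmo1, Hsd17b7 and Fasn, and both sterol transport genes lie left of 0.

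In the mevalonate arm 1 of 7 genes rose and 3 fell. The 2 first steps were lower. Acat2 (chr17:12942890-12960747, mm10), which condenses acetyl-CoA, was at 25.5, 32.2 and 36.5 CPM in siControl, 23.7, 28.2 and 32.5 CPM in siControl_IL17, 21.3, 25.2 and 26.0 CPM in siIMP2 and 21.4, 23.1 and 22.9 CPM in siIMP2_IL17. The groups overlapped without IL-17 and did not overlap with it. Acat2 fell by 0.34 ± 0.075 (log2 ± SE, edgeR adjusted p = 0.0020). Hmgcs1 (chr13:119690462-119708086), the HMG-CoA synthase of the next step, was at 88.1, 86.0 and 113 CPM in siControl and 68.9, 73.8 and 81.5 CPM in siIMP2, with no overlap. With IL-17 it was at 76.2, 84.2 and 89.6 CPM with the control siRNA and 62.8, 68.1 and 77.0 CPM with the IMP2 siRNA, where 1 value overlapped. It fell by 0.31 ± 0.044 (edgeR adjusted p = 8.3e-05), and was lower in each combination of title set and stimulus, where the RB160 set compares 1 library with 1. Pmvk, phosphomevalonate kinase, fell by 0.27 ± 0.075 (edgeR adjusted p = 0.0092), a call that was lost in the NA libraries alone.

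Of the other mevalonate genes only Fdps was called. Fdps (chr3:89093588-89101959), which makes farnesyl pyrophosphate, was at 61.8, 63.5 and 51.3 CPM in siControl and 74.7, 79.4 and 54.5 CPM in siIMP2. In siControl_IL17 the values were 63.9, 56.1 and 44.4 CPM, and in siIMP2_IL17 they were 73.3, 84.1 and 54.1 CPM. In each group the RB160 library was the lowest, so the groups overlapped across sets, while every siIMP2 library exceeded the siControl libraries of its own set and stimulus. Fdps rose by 0.29 ± 0.051 (edgeR adjusted p = 0.00044). Only 32.2% of Fdps gene reads were uniquely mapped, and in those reads alone the change was 0.32 (edgeR adjusted p = 0.00050). Mvk, Mvd and Idi1, which phosphorylate mevalonate, decarboxylate its diphosphate and isomerise the product, had log2 changes of 0.025, 0.081 and 0.055 and did not pass the test. Mvd lies within a gene named Gm20388 on the opposite strand, and the use of strand in counting is not given in the sources used here.

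In the squalene and sterol arm 2 of 11 genes rose and none fell. Of the 11 log2 changes 8 were positive, with a median of 0.091, where 50.4% of all genes were negative. In the NA libraries Ebp, Sc5d and Dhcr7 were negative. In the RB160 libraries the negative ones were Fdft1, Lss, Cyp51, Nsdhl, Ebp and Dhcr7. Msmo1 (chr8:64718139-64733792), the methylsterol oxidase that starts removal of the C4 methyl groups, was at 94.4, 87.9 and 69.7 CPM in siControl and 123, 127 and 91.9 CPM in siIMP2. These overlapped only through the RB160 library of siIMP2. Under IL-17 it was at 79.3, 78.9 and 64.3 CPM and at 100.1, 115 and 89.2 CPM, with no overlap. Msmo1 rose 1.36-fold, by 0.44 ± 0.044 on the log2 scale (edgeR adjusted p = 3.6e-06). Hsd17b7 (chr1:169949535-169969241), the ketoreductase of the same demethylation, was at 18.7, 16.7 and 15.4 CPM in siControl and 23.3, 26.6 and 19.6 CPM in siIMP2. Under IL-17 the values were 17.3, 15.9 and 14.6 CPM and 21.9, 27.2 and 19.5 CPM. It was the single member of which all 6 siIMP2 libraries lay above all 6 siControl libraries. The share of all genes that separated in this way was not computed. The increase of Hsd17b7 was 0.48 ± 0.065 (edgeR adjusted p = 5.2e-05).

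Nsdhl, the third enzyme of C4 demethylation, had a log2 change of 0.013 ± 0.056 and did not pass. Squalene epoxidase Sqle and lanosterol synthase Lss came close, at 0.096 ± 0.038 and 0.20 ± 0.081 (edgeR adjusted p = 0.052 and 0.056). Sqle was higher with siIMP2 in each of the 4 combinations of title set and stimulus. Lss was not: its log2 change was 0.34 in the NA libraries and -0.055 in the RB160 libraries. Of Lss gene reads 49.5% were uniquely mapped, and in those alone its change was 0.27 (edgeR adjusted p = 0.039). Dhcr7, which makes cholesterol from its last precursor, had a change of -0.21 ± 0.088 (edgeR adjusted p = 0.064). The squalene synthase gene Fdft1 and Cyp51, lanosterol demethylase, were at -0.064 and 0.0038. Tm7sf2 and Ebp, a sterol reductase and a sterol isomerase, were at 0.091 and -0.056, and the desaturase Sc5d was at 0.093, and none passed.

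Among the SREBP regulators Scap fell and the other 4 did not pass. Scap, the escort of the SREBPs, was at 71.8, 78.9 and 68.6 CPM in siControl and 60.5, 64.9 and 60.7 CPM in siIMP2, with no overlap. The IL-17 groups, at 77.4, 68.0 and 60.8 CPM and at 63.8, 64.2 and 57.1 CPM, overlapped. The decrease over both stimuli was 12.6%, with a log2 change of -0.19 ± 0.046 (edgeR adjusted p = 0.0038). Srebf1 and Srebf2, the SREBP genes themselves, had changes of -0.096 ± 0.048 and -0.033 ± 0.047. Insig1 and Insig2 were at 0.040 and 0.047.

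Both sterol transport genes fell. Stard4, a carrier of cholesterol between membranes, was at 19.5, 22.7 and 37.1 CPM in siControl and 15.8, 16.8 and 30.3 CPM in siIMP2. Under IL-17 it was at 17.1, 20.6 and 35.9 CPM and at 14.3, 14.3 and 26.9 CPM. Abca1 (chr4:53030787-53159895), which exports cholesterol to lipoproteins, was at 10.8, 9.53 and 22.4 CPM in siControl and 7.66, 7.23 and 18.0 CPM in siIMP2. With IL-17 it was at 12.3, 11.4 and 24.9 CPM and at 9.67, 8.62 and 18.9 CPM. For both genes the RB160 library was by far the highest of its group, so the groups overlapped, but within each title set every siIMP2 library was below its siControl counterparts at the same stimulus. The log2 changes were -0.37 ± 0.057 for Stard4 (edgeR adjusted p = 0.00015) and -0.39 ± 0.059 for Abca1 (edgeR adjusted p = 0.00014). With no title-set term their adjusted p-values in edgeR were 0.434 and 0.534.

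**Figure D3:**
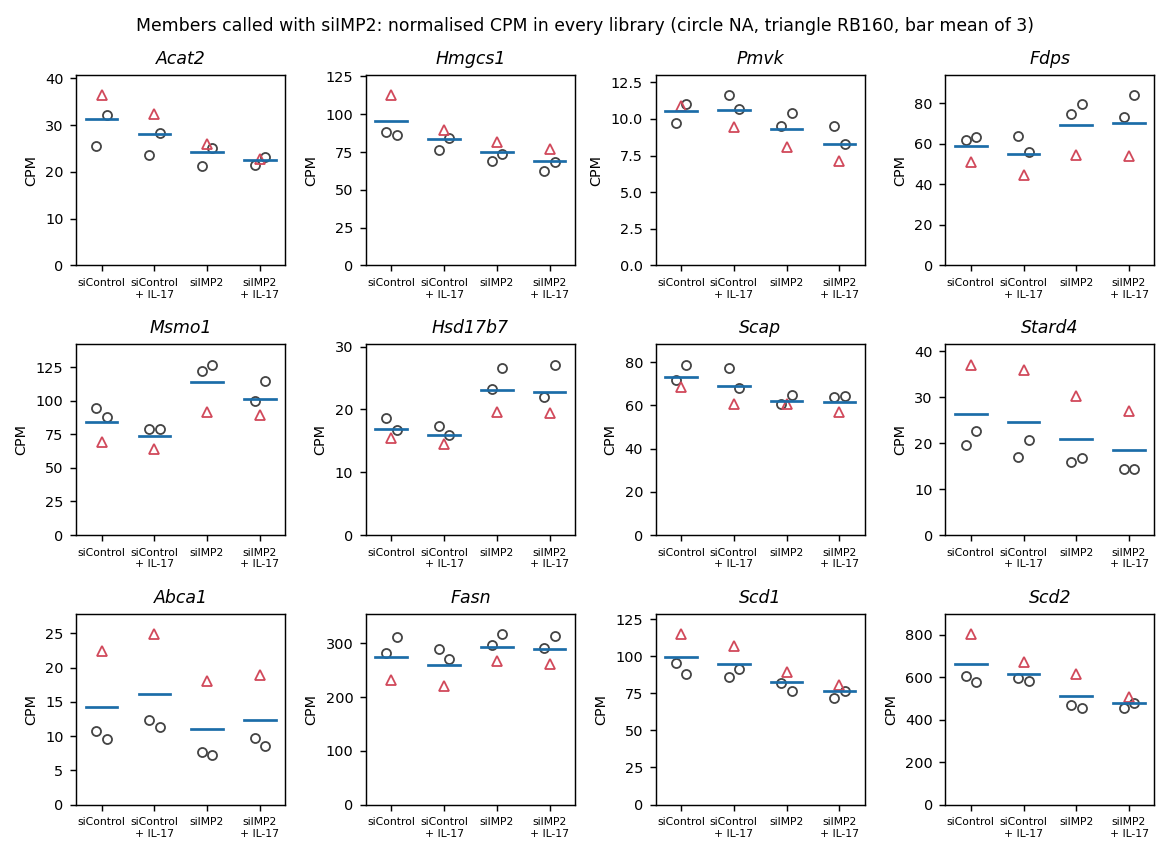
TMM-scaled CPM in every library for the 12 members called with siIMP2, by group. Circles are NA libraries, triangles RB160 libraries, bars the mean of 3, and each axis starts at 0. Hsd17b7 has no siIMP2 library below 19.5 CPM and no siControl library above 18.7 CPM, while the triangles of Stard4 and Abca1 lie above the circles in every group.

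In fatty acid synthesis the desaturases fell while the synthase rose. Scd2 (chr19:44293676-44306864) was at 606, 576 and 804 CPM in siControl and 471, 454 and 613 CPM in siIMP2. These overlapped through the RB160 library of siIMP2. The IL-17 groups, at 595, 584 and 671 CPM and at 456, 478 and 507 CPM, did not overlap. It fell by 0.36 ± 0.049 (edgeR adjusted p = 5.8e-05). Scd1, its neighbour on chromosome 19 with the same enzyme activity, fell by 0.29 ± 0.042 (edgeR adjusted p = 0.00011), from 99.5 ± 13.8 to 82.7 ± 6.52 CPM (SD, n = 3) in unstimulated cells. The 2 are close paralogs, and 99.7% of Scd1 and 99.9% of Scd2 gene reads were uniquely mapped. Fasn, fatty acid synthase, rose by 0.13 ± 0.044 (edgeR adjusted p = 0.026), the smallest change among the called members, and that call was lost in the NA libraries alone and when siControl_IL17 replicate 2 or any RB160 library was left out. Acly had a change of -0.062 ± 0.037 and did not pass.

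Most calls were shared by the unstimulated and the IL-17-treated cells. Without IL-17, 3 members rose and 7 fell, where 32.9% of all genes were called. With IL-17, 3 rose and 7 fell, where 33.4% were called. With no title-set term in the fit, both counts were 0. In both, 9 members were called, each in the same direction: Fdps, Msmo1 and Hsd17b7 rose, and Acat2, Hmgcs1, Stard4, Abca1, Scd1 and Scd2 fell. Scap was called without IL-17 alone and Pmvk with IL-17 alone. The difference of the IL-17 responses between the siRNAs, which tests whether the siRNA effect depended on the stimulus, called no member in edgeR, where 0% of all genes were called. At an unadjusted p under 0.05 it held 1 member, Nsdhl, at 0.24 ± 0.11, and DESeq2 and limma-voom also called 0 members. In the authors' deposited table of group comparisons, no member passed the false discovery rate in either direction in any of the 4 comparisons. How many of all genes passed in those comparisons was not counted, so nothing particular to the members is read from this. There, the log fold changes of Msmo1 and Hsd17b7 without IL-17 were 0.445 and 0.457, each with a value of 1 for the adjusted p.

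Reads inside a gene but outside its exons, which include those from introns of unspliced RNA, give a second readout. They made up 4.49% to 6.42% of gene reads, with the 2 highest shares in the RB160 libraries with IL-17. Of the 29 members 28 had enough such reads to be tested, all but Mvd. With siIMP2, averaged over both stimuli, Msmo1 rose and Scd2 and Cyp51 fell, where 22.2% of 12463 genes were called. Scd2 was at 84.3, 86.5 and 132 CPM of such reads in siControl and 64.4, 48.4 and 85.2 CPM in siIMP2, and fell by 0.49 ± 0.093 (edgeR adjusted p = 0.00028). Msmo1 rose by 0.32 ± 0.12 (edgeR adjusted p = 0.049), and this call was lost when any of 8 single libraries was left out. Cyp51 fell by 0.41 ± 0.13 (edgeR adjusted p = 0.029), a call lost without any of 6 single libraries and with no filter on low counts.

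The exon and outside-exon effects were then compared in a fit over both kinds of reads, with the library as a term. It called 1 of the 28 members, where 9.42% of 11508 genes were called. That member was Cyp51, whose exon effect exceeded its outside-exon effect by 0.37 ± 0.12 (edgeR adjusted p = 0.048). For Hsd17b7 the excess was 0.43 ± 0.18 and did not pass (edgeR adjusted p = 0.127), although its outside-exon change was 0.016 ± 0.19. Cyp51 overlaps Akap9 on the opposite strand by 166 bases. Akap9 itself had a log2 change of -0.036 in exon reads.

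The siRNA effect on several sterol genes differed between the title sets. A term for that difference, added after seeing the data, called 3 members, where 5.2% of all genes were called, and all 3 had a lower siIMP2 effect in the RB160 set. Insig2, which retains the Scap complex, was at 14.9 and 14.0 CPM in siControl and 16.6 and 18.1 CPM in siIMP2 in the NA set, but at 24.1 and 21.1 CPM in the RB160 set. With IL-17 the NA libraries were at 14.6 and 15.9 CPM and at 16.6 and 18.6 CPM, and the RB160 libraries at 29.1 and 22.3 CPM. The effect was 0.23 ± 0.066 in the NA set and -0.29 ± 0.086 in the RB160 set, a difference of -0.52 ± 0.11 (edgeR adjusted p = 0.015). Cyp51 went from 0.12 ± 0.050 to -0.23 ± 0.070 (difference -0.36 ± 0.086, edgeR adjusted p = 0.029). Fdft1 went from 0.074 ± 0.059 to -0.33 ± 0.081 (difference -0.40 ± 0.10, edgeR adjusted p = 0.033).

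Fdft1 overlaps Ctsb, a gene of high level on the opposite strand, by 767 bases, and Ctsb had a difference between the sets of -0.38 ± 0.078 (edgeR adjusted p = 0.014). Over all members 23 of the 29 differences were negative, with a median of -0.15, against 49.6% of all genes and a median of 0.0022. Within the NA set 5 members rose and 7 fell, where 47.5% of all genes were called, and within the RB160 set 4 rose and 11 fell, where 30.4% were called. Msmo1, Hmgcs1, Scd2, Stard4 and Abca1 had differences between the sets of -0.011, -0.055, -0.053, 0.029 and 0.051, each within its SE. The RB160 set had 1 library per group. Without siIMP2_IL17 replicate 3 the difference called no member, without siControl replicate 3 it called 1, without siIMP2_IL17 replicate 2 it called 1, and the 3 genes' differences kept their sign throughout. The adipocyte marker level, given above, was also lower with siIMP2 in both sets and far higher in RB160, and its part here was not tested.

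**Figure D4:**
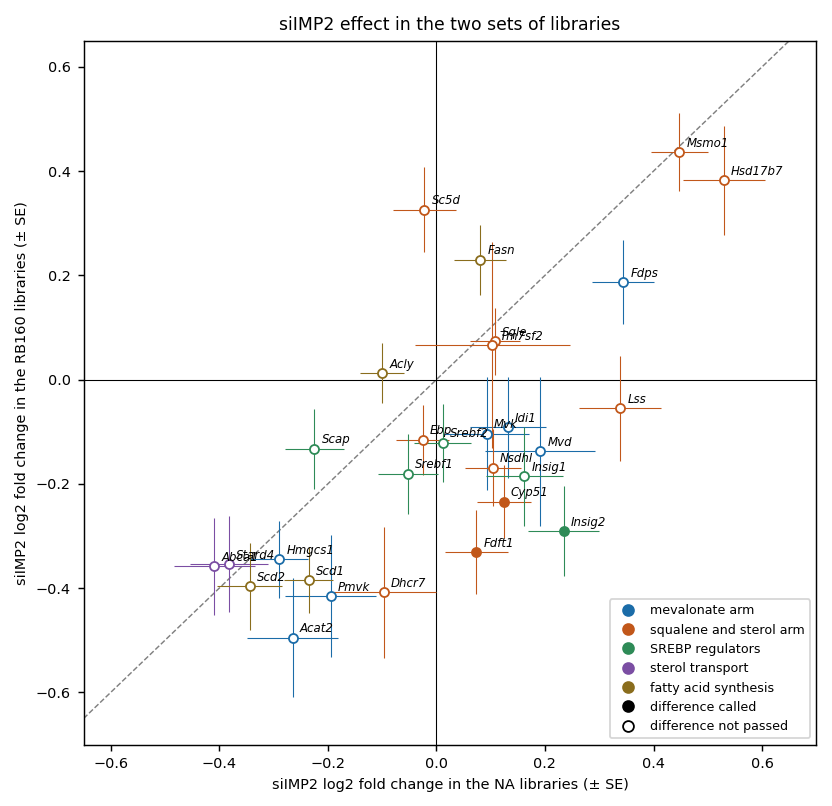
Log2 effect of siIMP2 in the NA libraries (x axis) against that in the RB160 libraries (y axis) for the 29 members, with standard errors. The dashed line marks equal effects. Filled points, those of Insig2, Cyp51 and Fdft1, passed the test of the difference, and they lie in the lower right, positive in NA and negative in RB160.

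IL-17 moved no member past the threshold. With siControl it called 0 of the 29 in edgeR, where 0.423% of all genes were called, and with siIMP2 it called 0, where 0.511% were called. Averaged over both siRNAs it called 0, where 2.72% were called. At an unadjusted p under 0.05 these held 5, 5 and 10 members. In the averaged comparison 25 of the 29 log2 changes were negative, with a median of -0.078, against 52.4% of all genes and a median of -0.0058. All 7 mevalonate genes and 10 of the 11 squalene and sterol genes were on the negative side, Sc5d being the exception at 0.17 ± 0.066. The nearest to the threshold was Msmo1 at -0.17 ± 0.044 (edgeR adjusted p = 0.060). Its mean level with the control siRNA was 84.0 ± 12.8 CPM without and 74.2 ± 8.57 CPM with IL-17 (SD, n = 3), and these overlapped. Hmgcs1 was at -0.15 ± 0.044 and Abca1 at 0.20 ± 0.059 (edgeR adjusted p = 0.093 and 0.096).

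DESeq2 called Msmo1 and Hmgcs1 in that averaged comparison, at -0.17 and -0.15 (adjusted p = 0.020 and 0.044), and limma-voom called 0. With no filter beyond 1 count and with uniquely mapped reads edgeR called Msmo1 alone (adjusted p = 0.0497 and 0.0498). For Scd2 the IL-17 value was 0.0055 in the NA libraries and -0.27 in the RB160 libraries. For the mevalonate kinase gene Mvk the values were -0.14 and -0.35. These differences between the sets were not tested. In reads outside exons IL-17 called 0 of 28 members in edgeR, where 0.931% of genes were called. Mvk, Sc5d, Stard4 and Abca1 had an unadjusted p under 0.05 there. Abca1 was at 1.03 ± 0.34 (edgeR adjusted p = 0.189), a value that rests on 1 to 28 such reads per library.

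**Figure D5:**
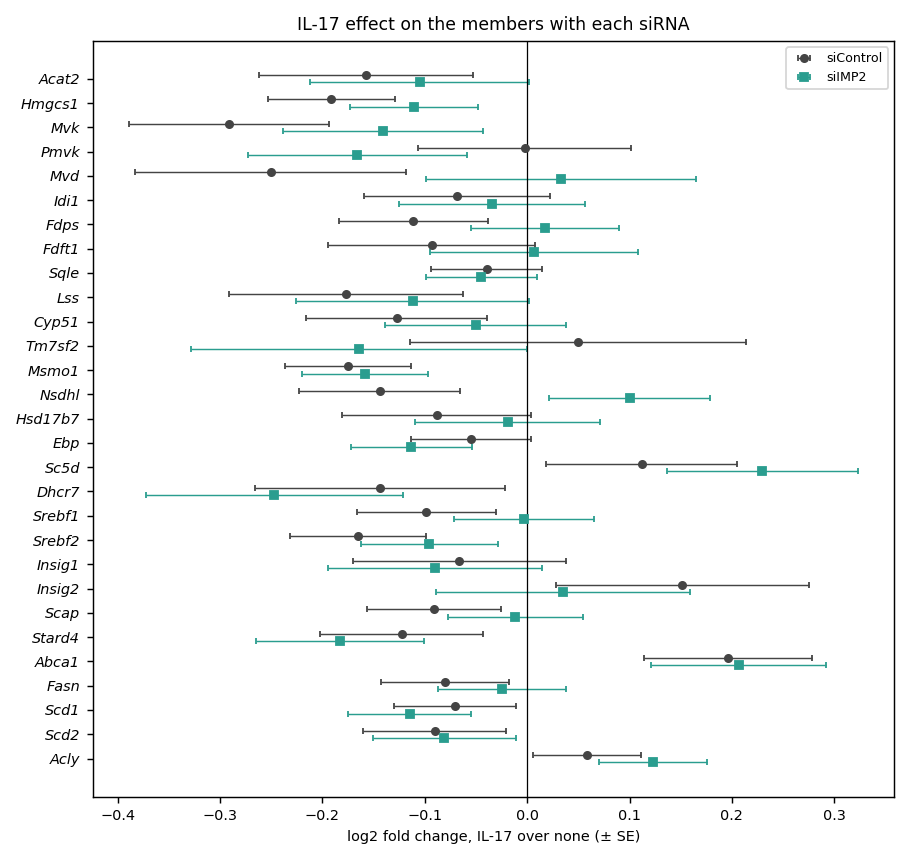
Log2 fold change of IL-17 over no stimulus for the 29 members, with siControl (circles) and with siIMP2 (squares) and the standard error of the fit. No point passed the threshold, and 24 of the 29 siControl values and 21 of the 29 siIMP2 values lie left of 0.

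The title set was the widest source of differences. Between the RB160 and the NA libraries 13 members were higher and 11 lower, where 69.5% of all genes were called, and the values are relative to the TMM centre. Abca1 was highest, at 7.23 to 12.3 CPM in the 8 NA libraries and 18.0 to 24.9 CPM in the 4 RB160 libraries, a log2 difference of 1.13 ± 0.060 (edgeR adjusted p = 4.4e-09). Stard4 followed at 0.89 ± 0.058 (edgeR adjusted p = 3.0e-08), then Insig2 at 0.58, Lss at 0.50 and Insig1 at 0.46. None of these 5 overlapped between the sets, and the share of all genes without overlap was not computed. Lower in RB160 were Srebf2 at -0.49 ± 0.051, Sc5d at -0.47, Nsdhl at -0.45, Fdps at -0.44, Mvd at -0.39 and Msmo1 at -0.35. In uniquely mapped reads alone the differences of Fdps and Lss were smaller, at -0.22 and 0.35. Within the squalene and sterol arm Lss, Dhcr7 and Fdft1 were higher in RB160 while Sqle, Msmo1, Nsdhl, Hsd17b7 and Sc5d were lower. On the TPM scale, where the median gene was 0.34 higher in RB160, the differences of Sqle, Hsd17b7, Fasn, Pmvk and Scap were positive, at 0.13, 0.062, 0.060, 0.16 and 0.18, and those of Srebf2, Sc5d, Nsdhl, Fdps, Mvd and Msmo1 stayed negative, from -0.15 to -0.014.

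Other genes around the pathway were read from 5 lists of pathway genes, which share only Abca1 and Srebf1 with the members, in the siIMP2 comparison averaged over both stimuli, which called 49.5% of all genes. Of 22 tested genes of other fatty acid and glycerolipid synthesis 9 rose and 7 fell. The elongases Elovl5 and Elovl6 fell by 0.74 and 0.63, and acetyl-CoA carboxylase Acaca, which supplies Fasn with malonyl-CoA, fell by 0.37. Fads3, Mid1ip1 and Mcat rose by 0.54, 0.51 and 0.35. Of 13 genes of SREBP processing and sterol sensing 2 rose, Paqr3 by 0.74 and Fbxw7 by 0.17. In that list Rnf145, Erlin2 and Rnf139 fell by 0.26, 0.27 and 0.15. Of 13 genes of the isoprenoid branch 2 rose, Rabggtb and Pdss2, and 5 fell, led by Nus1, Icmt and Coq2 at -0.45, -0.28 and -0.28.

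Of 15 tested genes of cholesterol uptake, trafficking and esterification 4 rose and 6 fell. The lipoprotein receptor gene Vldlr rose by 0.69 ± 0.068, Soat1, which esterifies cholesterol, by 0.36, and Gramd1a by 0.17. The HDL receptor Scarb1 fell by 0.98 ± 0.052 (edgeR adjusted p = 2.2e-08), the oxysterol hydroxylase Cyp7b1 by 1.30 ± 0.10 and the lysosomal carrier Npc2 by 0.28. Of 6 tested genes of the LXR response Nr1h2 rose by 0.22 and 3 fell, among them Mylip by 0.84 and Lpcat3 by 0.71, and the third was Abca1, which is also a member. IL-17 raised Cyp7b1 by 1.00 ± 0.10 (edgeR adjusted p = 0.00031) and Stard5 by 0.34 ± 0.079 (edgeR adjusted p = 0.039), in the comparison averaged over both siRNAs, which called 2.72% of all genes. It called no gene of the other 4 lists.

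Promoters were described because most members are known SREBP targets. RefSeq windows of 300 bases (250 before to 50 after the start, GRCm38.p6, the same assembly as mm10) matched 23 of the 29 members by symbol. Motifs were searched on both strands: the sterol regulatory element core TCACNCCAC, its form TCACCCCAC, which is a case of the former, the NF-Y box CCAAT and the E-box CACGTG. The NF-Y box was in the windows of 20 of the 23 matched members, beside 41.1% of all 27025 genes in the table. The 3 without it were Acat2, Scap and Abca1. With siIMP2, averaged over both stimuli, all 3 were called lower, while of the 20 with it 3 were called higher (Msmo1, Hsd17b7 and Fasn) and 2 lower (Hmgcs1 and Pmvk). Over all tested genes with a window, 24.7% of 5810 without the box and 26.9% of 4357 with it were called lower, and 24.4% and 25.0% were called higher. With only 3 members lacking the box, nothing is read from their direction. TCACCCCAC was in the window of Hmgcs1 alone, beside 0.614% of all genes, and TCACNCCAC was again in Hmgcs1 alone, beside 1.44%. CACGTG was in 6 matched members, Abca1, Dhcr7, Hsd17b7, Insig1, Sc5d and Scap, beside 8.09% of all genes. Such matches describe letters and show no binding.

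Stretches of 160 bases ahead of the start site follow for 6 called members, to set the 3 windows with a CCAAT box beside the 3 without, 5′ to 3′ on the gene's strand, with capitals for any of the motifs (ATTGG is CCAAT on the other strand). They lie outside annotated exons.
Hmgcs1, chr13:119690191-119690350, plus strand: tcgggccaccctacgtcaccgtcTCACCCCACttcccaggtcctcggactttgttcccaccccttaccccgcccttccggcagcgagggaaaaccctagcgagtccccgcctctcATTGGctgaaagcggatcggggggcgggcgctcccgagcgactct
Hsd17b7, chr1:169969242-169969401, minus strand: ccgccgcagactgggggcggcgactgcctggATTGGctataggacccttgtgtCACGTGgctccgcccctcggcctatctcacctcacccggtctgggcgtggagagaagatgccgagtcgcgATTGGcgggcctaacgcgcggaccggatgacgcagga
Fasn, chr11:120824548-120824707, minus strand: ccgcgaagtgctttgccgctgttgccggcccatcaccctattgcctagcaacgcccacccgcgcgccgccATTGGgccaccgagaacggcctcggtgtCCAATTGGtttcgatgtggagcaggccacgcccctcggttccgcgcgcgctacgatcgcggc
Acat2, chr17:12960748-12960907, minus strand: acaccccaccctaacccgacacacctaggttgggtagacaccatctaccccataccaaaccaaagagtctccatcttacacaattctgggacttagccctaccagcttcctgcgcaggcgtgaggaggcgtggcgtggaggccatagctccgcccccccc
Scap, chr9:110333128-110333287, plus strand: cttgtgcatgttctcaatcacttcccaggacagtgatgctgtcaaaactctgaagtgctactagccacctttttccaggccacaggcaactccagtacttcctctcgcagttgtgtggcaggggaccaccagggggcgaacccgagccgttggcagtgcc
Abca1, chr4:53159896-53160055, minus strand: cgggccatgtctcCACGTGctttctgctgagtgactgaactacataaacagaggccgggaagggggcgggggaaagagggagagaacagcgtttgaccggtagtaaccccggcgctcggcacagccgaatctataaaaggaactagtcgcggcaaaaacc
The stretch of Hmgcs1 holds 1 element core and 1 CCAAT box, that of Hsd17b7 holds 2 CCAAT boxes and 1 E-box, and that of Fasn holds 3 CCAAT boxes, of which 2 share bases on opposite strands. Those of Acat2 and Scap hold none of the motifs, and that of Abca1 holds 1 E-box.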

How the data were processed

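The deposited counts are whole-number exon read counts per gene, per the file headers, and the deposited TPM values are the authors' own. The deposited log2 fold changes and p-values (false discovery rate) are the authors', with the test not given in the sources used here. Per the submitters' processing notes the genome was mm10. The sources used here name no aligner, counter or strand setting. Reads outside exons are total gene reads minus exon reads.

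Counts were fitted over all 12 libraries with edgeR 4.0.16 (R 4.3.3): TMM factors, a minimum count of 10 and total of 15, quasi-likelihood test, terms for the 4 groups and the title set, Benjamini-Hochberg adjustment over all genes tested, threshold 0.05. CPM values are TMM-scaled. One CPM stood for 31.9 to 50.9 reads, and precision covers counting error and library spread. On simulated counts with 200 of 13702 genes changed 1.25-fold, 58.5% were recovered for the siRNA and 61.0% for IL-17. False calls numbered 13 and 8. The siRNA comparison in the data called 49.5% of genes, a far larger share, so its recovery cannot be read from this simulation. Alternatives tried were other factors (RLE, upper quartile), other tools (DESeq2 1.42.0, limma 3.58.1 with voom), no filter on counts, a fit lacking the title set, a fit of NA libraries only, each library left out and, added after seeing the data, uniquely mapped reads, a set-by-siRNA term, a joint fit of exon and outside-exon reads, and the replicate number as a block. Replicates were numbered by accession, so the fit does not treat a shared number as a pair. Members and lists were chosen with earlier results of these data known. All 29 members are named; of the other lists, up to 3 called genes of smallest p per direction. Sequences are RefSeq's.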

Additional observations from a re-analysis of the deposited data

Results flagged for a closer look

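The siIMP2 effect on 3 members differed between the title sets by a test of the difference itself, in edgeR's quasi-likelihood test with a term for the siRNA effect in the RB160 set beyond that in the NA set. Insig2 had a log2 difference of -0.52 (RB160 minus NA, adjusted p = 0.015), Fdft1 of -0.40 (adjusted p = 0.033) and Cyp51 of -0.36 (adjusted p = 0.029). The RB160 set has 1 library per group. Without siIMP2_IL17 replicate 3 the differences were -0.55, -0.40 and -0.27, and the smallest of their adjusted p-values was 0.096. Without siControl replicate 3 Insig2 alone was called, at -0.62 (adjusted p = 0.033). What sets the title sets apart is not given in the sources used here.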

How the results depend on the processing

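Replicates were numbered by accession, and number 3 is the RB160 library of each group. Whether numbers 1 and 2 pair the NA libraries was checked through replicate 2 minus replicate 1 in each group. Its correlation across all genes between groups was 0.017 to 0.17. Across the members it was -0.24 to 0.62, highest between siControl and siIMP2. In all 4 groups 6 members were higher in replicate 2 and 1 lower, and the share of all genes that did so was not computed. A shared number is thus a hint of pairing at most. With the replicate number as a block in place of the title set (replicate block, added after seeing the data), members called with siIMP2 numbered 10 without IL-17, 10 with it and 14 averaged over both, the 2 added being Sqle (edgeR adjusted p = 0.031) and Dhcr7 (adjusted p = 0.047). Under this block 0 members were called for IL-17, 23 between the title sets, without Pmvk, and 2 outside exons, without Msmo1, and no count of genes moved by over 1.5 times. With no title-set term, members called with siIMP2 numbered 0 without IL-17, 0 with it and 4 averaged over both, against 10, 10 and 12, and genes called numbered 321, 327 and 1666, against 4505, 4581 and 6777. For IL-17 averaged over both siRNAs, members called numbered 2 with DESeq2, 1 with no filter and 1 with uniquely mapped reads, against 0, and genes called were 651 with DESeq2, 674 with no filter, 4 with no title-set term and 199 in the NA libraries alone, against 373. For IL-17 with siControl genes called were 197 with DESeq2, 221 with no filter and 1 with no title-set term, against 58. With siIMP2 they were 170, 179 and 2, and 46 in the NA libraries alone, against 70. Outside exons no filter left 2 members called with siIMP2, against 3, and 283 genes with IL-17, against 116.

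With each library left out, members called ranged from 7 to 10 for siIMP2 without IL-17, 8 to 11 with it, 11 to 14 for the average, 19 to 23 between the title sets, 1 to 3 outside exons, and 0 to 4 for the set difference of the siRNA effect. They stayed at 0 to 0 in the IL-17 comparisons. Genes called ranged from 198 to 490 for IL-17 averaged, 9 to 98 with siControl, 13 to 117 with siIMP2 and 55 to 147 outside exons. No member's called change turned its direction under any alternative. Tm7sf2 had the fewest exon reads, 90 to 134 per library, and an SE of 0.12 for the averaged siRNA change, the widest of the members.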
